A study of Mus musculus with 9 samples.

Results

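The glutathione S-transferases were examined in midbrain tissue of mice with and without DJ-1, through 10 genes listed by symbol: Gsto1, Gsto2, Gstm1, Gstm5, Gstm7, Gsta4, Gstp1, Gstz1, Gstt1 and Gstk1. They are 10 of the 26602 genes counted, and all 10 are among the 18127 genes that reached a total of 10 counts. The set was chosen by gene symbol and selected on the counts of Gsto2, which differed between the genotypes in these same libraries, so the genotype values of the 10 genes are given here as a description and not as evidence of a difference. The tissue was midbrain with the substantia nigra region, from 4 DJ-1+/+ mice (labelled WT, here wild-type) and 5 DJ-1-/- mice (labelled DJ-1 KO, here knockout), 3 to 4 months old and without treatment. The knockout mice carry a constitutive targeted Park7 allele, not limited to a cell type, on a C57BL/6 background, and both genotypes came from heterozygous dams and shared cages. RNA was read near the 3′ end of transcripts (QuantSeq), and PCR copies were collapsed with unique molecular identifiers, so a count is meant to stand for 1 molecule and not to grow with transcript length. Levels are given as counts per 1000000 counts of the library (cpm).

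Glutathione S-transferases join the tripeptide glutathione to reactive, electron-poor compounds, which makes these compounds more soluble and easier to export. The cytosolic enzymes are sorted by sequence into classes such as alpha, mu, pi, theta, zeta and omega, while the kappa enzyme sits in mitochondria and peroxisomes. Omega enzymes carry a cysteine in the active site and act mainly as thiol transferases and as reductases of dehydroascorbate, the oxidised form of vitamin C. Many genes of the family are switched on by the transcription factor Nrf2 through antioxidant response elements, and DJ-1, a redox-sensitive protein encoded by Park7 and mutated in inherited Parkinson's disease, has been linked to Nrf2 in other work.

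Library totals ran from 841974 to 886085 counts in wild-type and from 967751 to 1098125 in knockout mice, so every knockout library was deeper than every wild-type library. A level of 3 counts, taken as the floor, equals 2.73 to 3.56 cpm, which covers counting error only. Park7 had 105 to 132 counts in the wild-type and 14 to 29 in the knockout libraries. Xist, made from the inactive X chromosome, was at 0 to 2 counts, and the Y-linked Ddx3y at 113 to 152, in 2 wild-type mice (replicates 1 and 4) and 1 knockout mouse (replicate 5). The labels give no sex, and libraries with Y-linked counts were thus unevenly spread over the genotypes. The highest gene of a library held 1040 to 1359 counts, 0.107 to 0.142% of the total. Whether the counts of abundant genes are compressed, which would lessen differences in level and between genotypes for the abundant members, was not tested. Dopaminergic neuron markers were present, with 9 of 10 listed genes counted in every library, and their summed level was 544 to 1026 cpm in wild-type and 813 to 1065 cpm in knockout mice. DJ-1+/+ replicate 1 stood apart by cerebellar neuron markers (1157 cpm against 341 to 554 in the other wild-type and 365 to 546 in the knockout libraries), and DJ-1+/+ replicate 4 by choroid plexus markers (900 cpm against 168 to 410 and 165 to 277).

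Gsto1 and Gsto2, the omega pair, lie next to each other on chromosome 19 on the plus strand, at chr19:47854970-47864790 and chr19:47865534-47886324 (GRCm38), with 0.744 kb between them. The 250 bases before the RefSeq start of each gene (GRCm38.p6, plus strand) are shown because these neighbours differed in their genotype values. Capitals mark CpG dinucleotides.
Gsto1, chr19:47854723-47854972: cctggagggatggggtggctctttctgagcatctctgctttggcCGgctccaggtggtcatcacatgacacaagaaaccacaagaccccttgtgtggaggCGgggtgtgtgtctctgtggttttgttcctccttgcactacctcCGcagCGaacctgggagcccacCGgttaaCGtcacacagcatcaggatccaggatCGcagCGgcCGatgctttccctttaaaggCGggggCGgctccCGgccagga
Gsto2, chr19:47865295-47865544: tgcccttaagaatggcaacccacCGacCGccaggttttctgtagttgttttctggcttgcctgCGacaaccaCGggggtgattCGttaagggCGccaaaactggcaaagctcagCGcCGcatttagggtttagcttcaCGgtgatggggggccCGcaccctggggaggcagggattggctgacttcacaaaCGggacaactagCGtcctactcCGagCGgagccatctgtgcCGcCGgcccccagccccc
The Gsto1 window was 60% G and C with 12 CpG dinucleotides, and the Gsto2 window was 60.8% G and C with 16, where the median over all RefSeq windows of this length was 52.4%. Neither window held the core of the antioxidant response element, searched on both strands as TGACNNNGC or TGAGNNNGC, and neither did the other Gsto2 window.

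Gsto2 was the lowest of the 10 genes and the only one whose libraries did not overlap between genotypes. It had 1, 1, 2 and 3 counts in the wild-type mice and 9, 11, 5, 11 and 5 counts in the knockout mice. Every knockout library thus lay above every wild-type library, although the wild-type counts were all at or under the floor. Its level was 2.01 ± 1.07 cpm (SD, n = 4) in wild-type and 8.09 ± 2.93 cpm (SD, n = 5) in knockout mice. The summed counts, 7 of 3467509 and 41 of 5060495, gave a ratio of 4.01, with a 95% exact interval of 1.78 to 10.6 that covers counting error only. In the edgeR fit over all genes this was 1.93 ± 0.51 (log2 fold change ± standard error), and omitting single libraries gave 1.74 to 2.29. With 7 counts in wild-type mice, Gsto2 passed the minimum of 10 only through the knockout libraries. Since this gene was picked for its difference, its separation has no weight as a test, and 1.25% of all genes tested did not overlap between genotypes (0.662% with knockout higher). Because the tissue was sequenced in bulk, more cells of a type and more RNA per cell cannot be told apart.

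Every knockout library lay above every wild-type library, so any split of the libraries gives more Gsto2 in knockout mice. The values with and without Xist are thus a description only. Among libraries with Xist, Gsto2 was at 1.73 cpm in 2 wild-type and 8.89 cpm in 4 knockout mice. Among libraries without Xist, it was at 2.29 cpm in 2 wild-type mice and 4.87 cpm in the 1 knockout mouse, which rests on 5 counts. With the counts of every library thinned to the shallowest total the log2 fold change was 1.79.

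Gsto1, whose protein shares the omega active site and reduces dehydroascorbate and mixed disulfides, was far more abundant than Gsto2. It had 50, 69, 52 and 55 counts in wild-type and 80, 79, 80, 62 and 65 counts in knockout mice. The groups overlapped, and DJ-1+/+ replicate 2, at 78.4 cpm, was above 3 of 5 knockout mice. The levels were 65.1 ± 8.95 cpm (SD, n = 4) and 72.4 ± 8.85 cpm (SD, n = 5), a log2 fold change of 0.15 with a standard error of 0.13. Gsto2 made up 1.96, 1.43, 3.70 and 5.17% of the summed omega counts in wild-type mice and 10.1, 12.2, 5.88, 15.1 and 7.14% in knockout mice. These shares did not overlap between genotypes, but their 95% exact intervals did, from 1.08 to 14.4% in DJ-1+/+ replicate 4 and from 1.94 to 13.2% in DJ-1-/- replicate 3. The shares contain the counts by which Gsto2 was picked, so their separation has no weight as a test either.

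**Figure D1:**
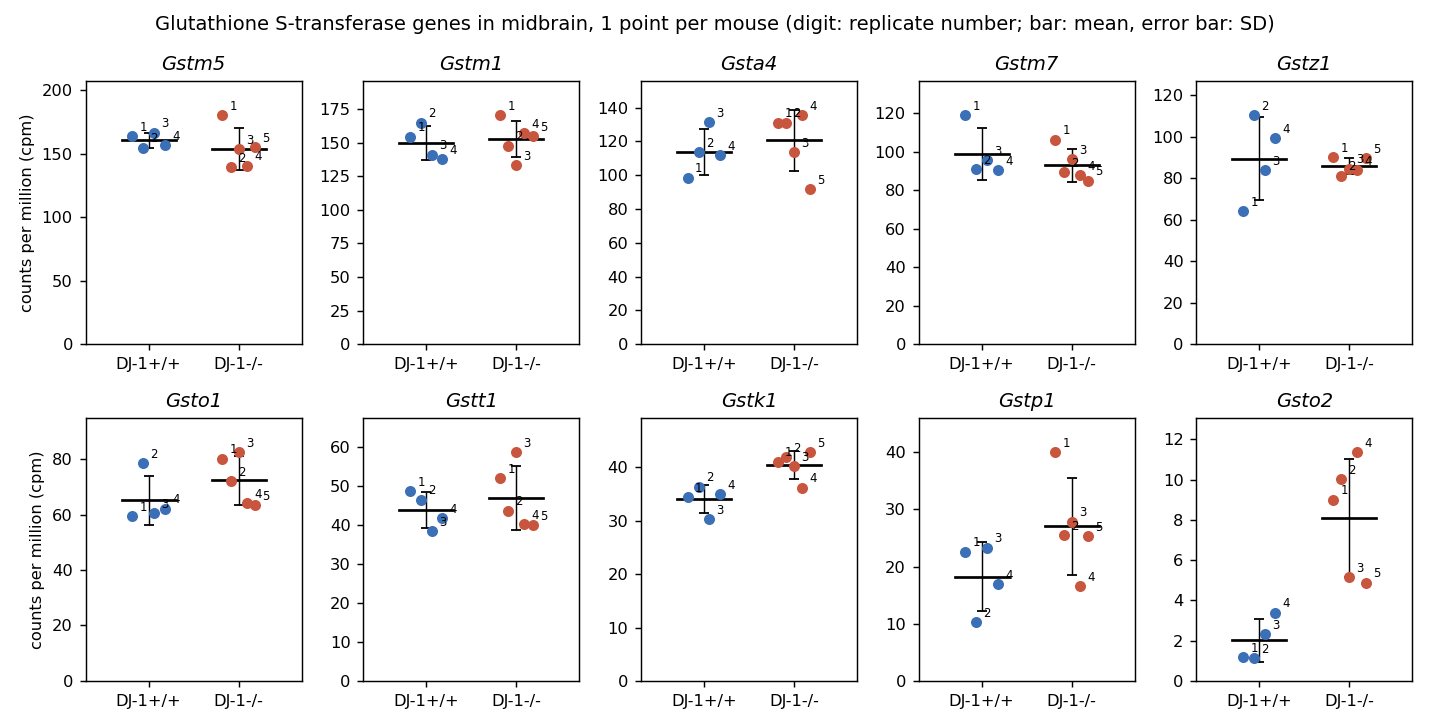
Level in cpm of each of the 10 genes in every mouse, in a panel of its own with an axis from 0, with points for single libraries, lines for group means and bars for the SD. Gsto2 is the panel without overlap, with wild-type mice at 1.14 to 3.39 cpm and knockout mice at 4.87 to 11.4 cpm.

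Gstp1 encodes the pi enzyme, which conjugates glutathione and also attaches it to protein thiols. It had 19, 9, 20 and 15 counts in wild-type and 40, 28, 27, 16 and 26 counts in knockout mice. In 4 of 5 knockout libraries it was above all wild-type libraries, and DJ-1-/- replicate 4 lay among the wild-type values. The levels were 18.3 ± 6.05 cpm (SD, n = 4) and 27.1 ± 8.45 cpm (SD, n = 5), a log2 fold change of 0.57 with a standard error of 0.28. Its lowest levels, 10.2 cpm in DJ-1+/+ replicate 2 and 16.5 cpm in DJ-1-/- replicate 4, fell in the libraries with the lowest counts within their genotype of Gpx4, a glutathione peroxidase for lipid peroxides (37 and 48 counts), and of Ftl1, the ferritin light chain (8 and 7 counts). Other genes went both ways in these libraries. Gsr (14 and 15 counts) and Mgst3 (36 and 40 counts) were also lowest within their genotype. Gpx3, a further glutathione peroxidase, was highest within each genotype there (116 and 123 counts). All of these genes were singled out after their values were seen, and their part in the Gstp1 difference was not tested. The Gstp1 log2 fold change was 0.50 without both of these libraries. It was 0.37 without DJ-1+/+ replicate 2 alone and 0.69 without DJ-1-/- replicate 4 alone. Omitting single libraries gave 0.37 to 0.71. Of the 50-base stretches in the last 300 bases of Gstp1 transcripts, 76.7% also occur in Gstp2 or Gstp-ps. The treatment of reads with several matches is not known, so the Gstp1 counts are uncertain. Gstp2 itself had 4 counts in total over the 9 libraries.

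**Figure D2:**
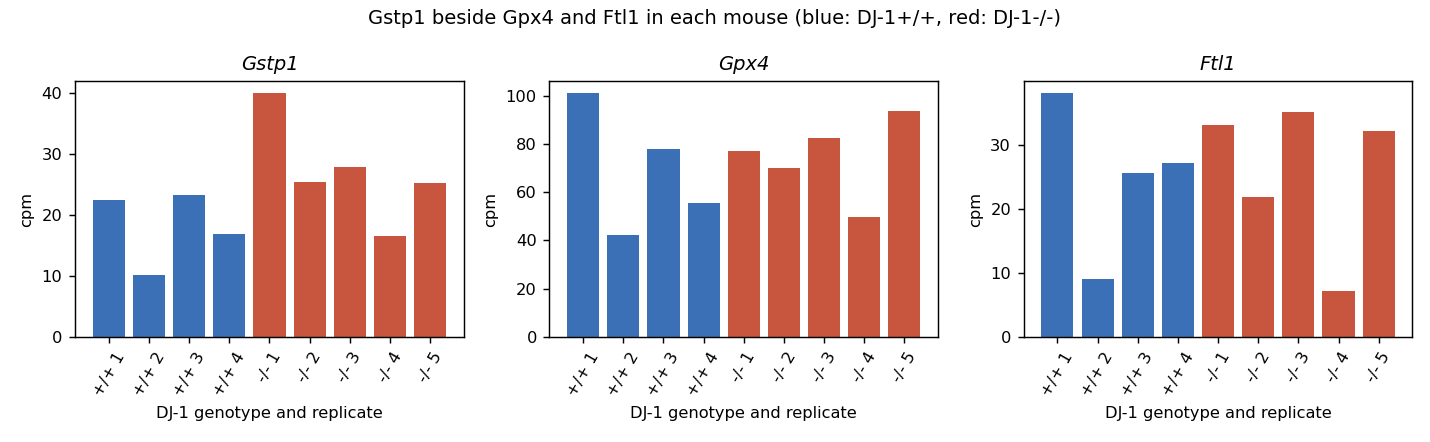
Level in cpm of Gstp1, Gpx4 and Ftl1 in each mouse, blue for wild-type and red for knockout. DJ-1+/+ replicate 2 (10.2, 42.05 and 9.09 cpm) and DJ-1-/- replicate 4 (16.5, 49.6 and 7.23 cpm) are low in all 3 genes.

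Gstk1 encodes the kappa enzyme of mitochondria and peroxisomes. It had 29, 32, 26 and 31 counts in wild-type and 41, 46, 39, 35 and 44 counts in knockout mice. In 4 of 5 knockout libraries it was above all wild-type libraries, and DJ-1-/- replicate 4, at 36.2 cpm, lay just under the highest wild-type library at 36.4 cpm. The levels were 34.0 ± 2.64 cpm (SD, n = 4) and 40.4 ± 2.58 cpm (SD, n = 5), 1.19-fold, or 0.25 ± 0.15 as log2 fold change ± standard error. The spread within genotypes was small for such counts, with a variance 0.171 times the mean. Sampling of independent molecules would give a ratio near 1 on average, and the median over all genes tested was 1.14. With 9 libraries the ratio of a single gene varies widely, so this value is uncertain.

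The mu enzymes Gstm5, Gstm1 and Gstm7, which lie within the chr3:107895821-108017973 stretch, were among the most abundant of the 10 genes and differed little between genotypes. Gstm5, a mu form known for its expression in brain, had 136 to 143 counts in wild-type and 136 to 180 in knockout mice, 160 ± 5.61 cpm (SD, n = 4) and 154 ± 16.5 cpm (SD, n = 5). Gstm1, the best studied mu enzyme, was at 149 ± 12.6 and 153 ± 13.6 cpm, and 23% of its 3′-end stretches also occur in Gstm3, Gm8834 or Gstm2-ps1. Gstm7 was at 98.8 ± 13.5 and 92.8 ± 8.49 cpm. The log2 fold changes of these mu genes were −0.06, 0.03 and −0.09, with standard errors of 0.08, 0.09 and 0.11. Gstm5 shares 178 exonic bases with 4933431E20Rik on the opposite strand, and with the strand setting not known its counts are uncertain. The direction of Gstm1 turned under 4 and that of Gstm7 under 2 of 20 alternative settings.

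Gsta4, Gstz1 and Gstt1 overlapped widely between genotypes. Gsta4, an alpha enzyme that conjugates the lipid peroxidation product 4-hydroxynonenal, was at 114 ± 13.5 cpm (SD, n = 4) in wild-type and 120.5 ± 18.2 cpm (SD, n = 5) in knockout mice. Gstz1, the zeta enzyme that acts as maleylacetoacetate isomerase in tyrosine breakdown, was at 89.4 ± 20.02 and 85.8 ± 3.93 cpm. It ranged from 54 to 97 counts among the wild-type mice and from 81 to 92 among the knockout mice. It shares 465 exonic bases with Pomt2 and 156 with Gm6566, both on the opposite strand, so its counts are uncertain in the same way. Gstt1, a theta enzyme whose catalytic residue is a serine, was at 43.9 ± 4.66 and 47.0 ± 8.22 cpm. The log2 fold changes were 0.08, −0.06 and 0.10, with standard errors of 0.11, 0.13 and 0.16, and the direction of Gsta4 and of Gstz1 turned under 2 of 20 alternative settings each.

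Of the 10 genes, Gsta4 had the smallest p for a relation with Xist, which did not pass adjustment. In an edgeR quasi-likelihood fit with log2 cpm of Xist as a term beside genotype, its level was 0.05 higher on the log2 scale per log2 unit of Xist, with an unadjusted p of 0.00833 and a Benjamini-Hochberg adjusted p of 0.392. Among Xist libraries it averaged 122.6 cpm in 2 wild-type mice, against 127.8 cpm in 4 knockout mice. Without Xist it averaged 105.2 cpm in 2 wild-type mice, against 91.6 cpm in the single knockout mouse. By this measure 1 of the 10 genes had an unadjusted p under 0.05, beside 7.89% of all genes tested, and 0 had an adjusted p under 0.05, beside 0.165%.

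**Figure D3:**
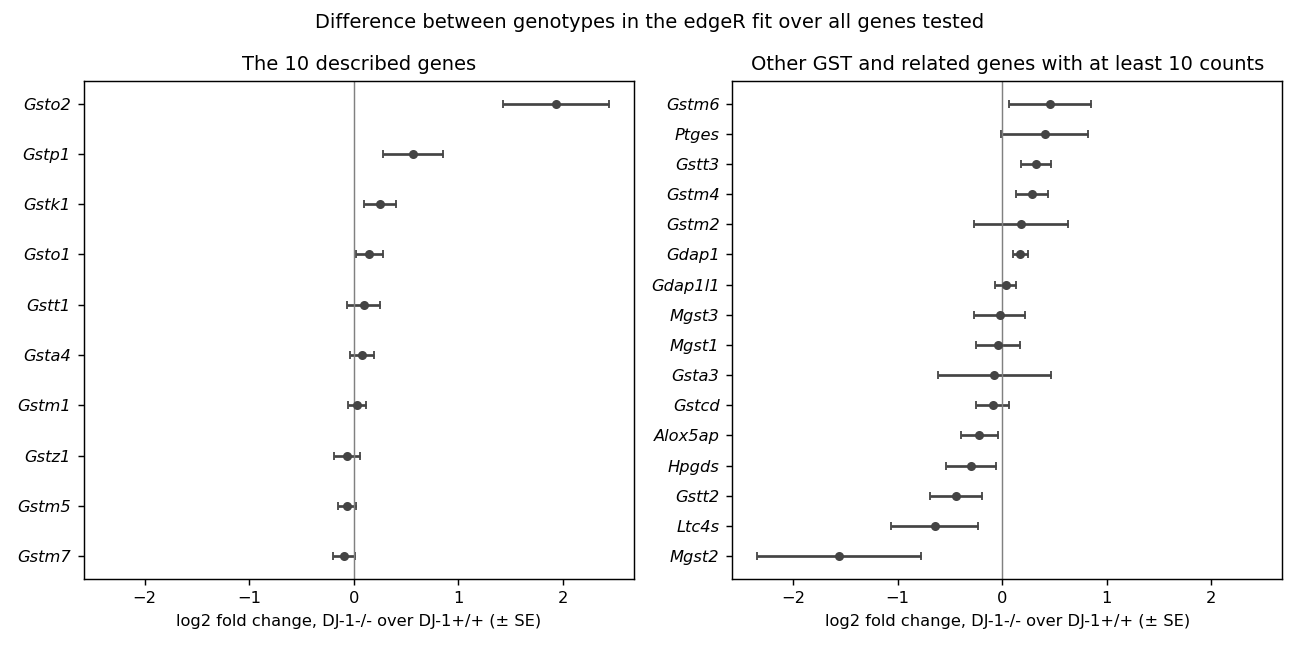
Log2 fold change of knockout over wild-type in the edgeR fit over all genes tested, with bars of 1 standard error. The left panel shows the 10 genes, and the right panel other family genes and relatives that passed the count minimum. Gsto2, at 1.93, lies apart from the other 9 genes on the left, which run from −0.09 to 0.57. Genes on the right run from −1.56 (Mgst2) to 0.46.

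In the order of their mean level over the 9 libraries the genes ran Gstm5, Gstm1, Gsta4, Gstm7, Gstz1, Gsto1, Gstt1, Gstk1, Gstp1 and Gsto2. Gstm5 stood at the 94.6th percentile of all genes tested and Gsto2 at the 21.5th. Gstm5 exceeded Gstm1 by 5.55 ± 15.0 cpm (SD of the difference over 9 libraries) and was above it in 5 of 9 libraries, so this pair did not differ beyond its spread. Gstm7 exceeded Gstz1 by 8.08 ± 20.9 cpm, in 6 of 9 libraries, and did not differ beyond its spread either. Each of the other 7 steps was larger than its SD. The 10 genes together amounted to 755 to 807 cpm in wild-type and 752 to 900 cpm in knockout mice, with overlapping groups.

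Of the 10 genes, 7 had a log2 fold change above 0, where 51.8% of all genes tested did, and their median was 0.09 where that of all genes was 0.01. In edgeR's quasi-likelihood test 1 of the 10, Gsto2, had an unadjusted p under 0.05, beside 2.82% of all genes tested. By this test none had a Benjamini-Hochberg adjusted p under 0.05, beside 0.00552% of all genes tested, and DESeq2 also gave 1 and 0, beside 1.30 and 0.00552% of its genes. These counts use the contrast through which Gsto2 was chosen and nothing is read from them. The count of 1 became 2 without DJ-1+/+ replicate 1, DJ-1+/+ replicate 3 or DJ-1-/- replicate 4, and also without the count minimum, with the replicate block, and without both libraries lowest in Gpx4 and Ftl1.

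**Figure D4:**
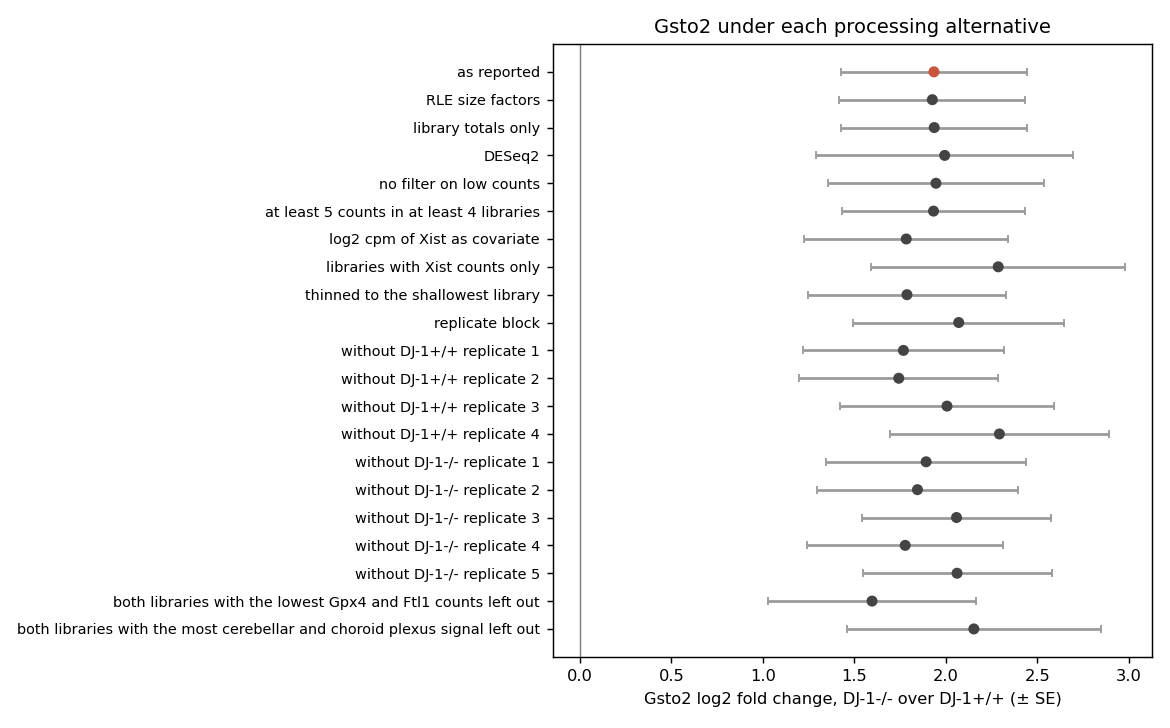
Log2 fold change of Gsto2 between genotypes under the reported setting and under each alternative setting, with bars of 1 standard error. All values lie between 1.60 and 2.29. Because Gsto2 was picked for this difference and its libraries did not overlap between genotypes, these values are no test of it.

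Members of the family and related genes outside these 10 split in both directions. Of 25 further glutathione transferase genes and relatives listed, 16 passed the count minimum, with 7 higher and 9 lower in knockout mice and a median log2 fold change of −0.03. Gstt3, a theta relative beside Gstt1, went from 38.9 ± 4.40 cpm to 48.8 ± 4.42 cpm (log2 fold change 0.32, standard error 0.15). Gdap1, a mitochondrial protein with a transferase-like fold that is mutated in inherited neuropathy, was at 173.5 and 195 cpm (0.17, standard error 0.07). Unadjusted p was 0.0415 for Gstt3 and 0.0307 for Gdap1 in edgeR's quasi-likelihood test, the Benjamini-Hochberg adjusted p was 0.9999 for both, and DESeq2 gave 0 genes of the list an unadjusted p under 0.05. Mgst2, a membrane-bound relative, had 1, 5, 2 and 1 counts in wild-type and 1, 1, 0, 1 and 1 in knockout mice, around the floor. Its groups did not overlap in cpm (1.13 to 5.68 in wild-type, 0 to 1.03 in knockout mice), as for 1.25% of all genes tested. The log2 fold change was −1.56 (standard error 0.78), opposite in direction to Gsto2. Single counts occurred in both genotypes, so this separation rests on library depth.

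Genes that supply and use glutathione were listed next. Of 21 supply genes, 19 were tested, 6 higher and 13 lower, with a median log2 fold change of −0.06. Among them were Slc1a1, a transporter for glutamate and cysteine (−0.23, standard error 0.12), Oplah, the 5-oxoprolinase of glutathione turnover (−0.26, standard error 0.15), and Slc7a11, the cystine carrier (−0.14, standard error 0.11). Of 23 genes that use glutathione, such as peroxidases and glutaredoxins, 19 were tested, 10 higher and 9 lower, with a median of 0.00. Examples were the glutaredoxin Glrx3 (0.12) and the peroxiredoxin Prdx6 (0.08). Of 19 Nrf2 pathway genes, 18 were tested, 7 higher and 11 lower, with a median of −0.03, and the examples were Blvrb, a biliverdin reductase (0.37, standard error 0.22), G6pdx, which makes NADPH (0.24, standard error 0.15), and the small Maf factor Maff (−0.60, standard error 0.42). In these lists 0 genes had an unadjusted or a Benjamini-Hochberg adjusted p under 0.05 by edgeR's quasi-likelihood test, and 0 by DESeq2. Of the genes of tyrosine breakdown other than Gstz1, 1 of 5 was tested, Fah, at a log2 fold change of 0.10 with a standard error of 0.15.

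Around Gsto2, 8 genes within 500 kb were tested, 2 higher and 6 lower in knockout mice. Stn1, a component of the complex that protects telomere ends, 328 kb away, had 12, 15, 10 and 14 counts in wild-type and 27, 21, 19, 20 and 25 counts in knockout mice. Its groups did not overlap, which held for 1.25% of all genes tested (0.662% with knockout higher). Wild-type mice were at 14.7 ± 2.33 cpm (SD, n = 4) and knockout mice at 22.2 ± 3.41 cpm (SD, n = 5). This was a log2 fold change of 0.59 (standard error 0.23), and edgeR's quasi-likelihood test gave an unadjusted p of 0.0236 and a Benjamini-Hochberg adjusted p of 0.9999. The other neighbours were Gsto1, described above, Slk (−0.14), Sfr1 (−0.02), Itprip (−0.06), Sh3pxd2a (−0.07), Sorcs3 (−0.03) and Cfap43 (−0.31). Itprip had 0 to 2 counts per library, under the floor, with a standard error of 0.77. The standard error of Cfap43 was 0.58, so both values are uncertain. Cfap43 spans both Gsto genes on the opposite strand and had 16 counts in DJ-1+/+ replicate 4, the library high in choroid plexus markers. No Gsto1 or Gsto2 exon overlaps a Cfap43 exon. Over the lists of this and the preceding paragraphs, 3 of 80 genes had an unadjusted p under 0.05 (3.75%, beside 2.82% of all genes), namely Gstt3, Gdap1 and Stn1, and DESeq2 gave 0 of them. The count was 1 without DJ-1-/- replicate 1 and 5 without both libraries lowest in Gpx4 and Ftl1.

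**Figure D5:**
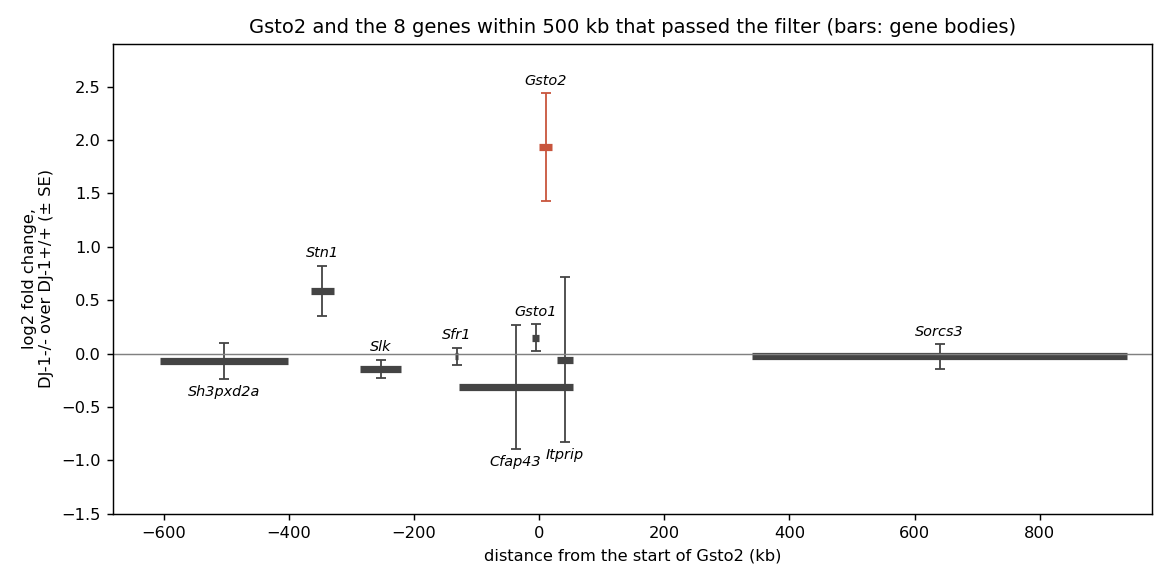
Log2 fold change of knockout over wild-type for Gsto2 and the tested genes near it, against distance from the start of Gsto2 in kb, with thick bars for gene bodies and thin bars for 1 standard error. Gsto2 is at 1.93 and Stn1 at 0.59, while the remaining neighbours run from −0.31 to 0.15.

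The antioxidant response element core was present in 5 of the 9 genes with a RefSeq window, where 25.7% of all genes had it in one of their windows. The matched letters are shown with their place before the start, since they are the bases that the search found. In Gstm5 they were TGACCACGC (−42 to −34) and GCCAGCTCA (−196 to −188), and in Gstm7 TGACAAAGC (−129 to −121). In Gstp1 they were TGAGTCAGC (−74 to −66) and GCGTCCTCA (−9 to −1), in Gstt1 TGAGAGAGC (−89 to −81), and in Gstz1 GCGCCCTCA (−73 to −65) and, in another window, TGAGCCTGC (−184 to −176). Gsto1, Gsto2, Gstm1 and Gstk1 had no match in these windows, and Gsta4 is not in the table. A match is a run of letters, not a site shown to be bound.

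The genes whose profile over the 9 libraries was most like that of Gsto2, by the root mean square difference of standardised log2(cpm + 1) values, were AC124513.1 (0.322), Drosha (0.374) and Zfp787 (0.416), where the median over 18126 genes was 1.40. AC124513.1 is annotated as a processed pseudogene on chromosome 19, Drosha starts the processing of microRNA precursors, and Zfp787 is a zinc finger gene. For the most abundant gene, Gstm5, the most alike were 2810405F17Rik (0.265), Usp31 (0.378) and Ubqln2 (0.396), with a median of 1.43. Since Gsto2 was picked for its genotype difference, genes with a similar difference rank high beside it, and shared regulation was not tested. Counts were low for AC124513.1, at 4 to 13 per library, and for 2810405F17Rik, at 1 to 7.

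Markers of other cell types overlapped between genotypes in all 11 lists. Astrocyte markers summed to 1891 to 2169 cpm in wild-type and 1892 to 2157 cpm in knockout mice. All 10 dopaminergic neuron markers had a higher mean in knockout mice, and 0 of 8 cerebellar and 0 of 10 choroid plexus markers did. Endothelial markers, 0 of 7 higher in knockout mice, summed to 456 to 562 cpm in wild-type against 432 to 515 cpm. Erythrocyte markers, 1 of 5 higher, summed to 432 to 664 cpm in wild-type against 382 to 525 cpm. Without DJ-1+/+ replicates 1 and 4, the libraries high in cerebellar and choroid plexus markers, the log2 fold change of Gsto2 was 2.15. These are also the wild-type libraries with Y-linked Ddx3y counts (121 and 113), so marker content and Y-linked expression cannot be told apart in this setting. The part of these cell types in the values of the 10 genes was not tested.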

How the data were processed

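Midbrain libraries from 4 DJ-1+/+ and 5 DJ-1-/- mice were analysed, grouped by the genotype in the labels. The authors deposited UMI counts per Ensembl gene, whole numbers without normalization, and genes not listed for a library were given 0. The submitters' processing notes name fastp 0.20.0, STAR 2.7.3a, Subread featureCounts 2.0.0 and UMI-tools 1.0.0 with GRCm38. Annotation, strand setting and treatment of reads with several matches are not given in the sources used here, so genes with shared or overlapping sequence are uncertain. Library totals ran from 841974 to 1098125. With no statement that mice came from separate litters, p-values measure the spread between these mice.

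Symbols and positions came from GENCODE M21 (GRCm38), and promoter windows from RefSeq (GRCm38.p6), matched by symbol for 9 of 10 genes. Genes whose counts summed to 10 or more were fitted with genotype alone in edgeR 4.0.16 (TMM, glmQLFit, glmQLFTest, limma 3.58.1, R 4.3.3), and p-values were Benjamini-Hochberg adjusted over all 18127 genes. Standard errors were derived from the F statistic (absolute log2 fold change over the root of F). Cpm are counts divided by the library total. Intervals are exact and cover counting error only. Scripts used Python 3.11.15, pandas 2.3.3, numpy 2.4.6, scipy 1.17.1 and matplotlib 3.10.9, and were tested on simulated data. Genes changed in that simulation had an expected mean of at least 10 counts per library, above the mean of Gsto2, so its level was not covered.

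The genes and lists were chosen with earlier results of these data known. Genes named were the 10 members, Park7, Xist, Ddx3y, in each list the 3 with the smallest unadjusted p, the tested genes within 500 kb of Gsto2, and the 3 most like Gsto2 and Gstm5. A gene that this rule names is not reported here. Alternatives were RLE size factors, library totals, DESeq2 1.42.0, other count minimums, Xist as covariate, Xist libraries only, thinned counts, a replicate block and each library left out. Leaving out the libraries low in Gpx4 and Ftl1, or DJ-1+/+ replicates 1 and 4, was chosen after seeing the data.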

Additional observations from a re-analysis of the deposited data

Results flagged for a closer look

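For the members, Park7, the genes picked from the lists and the summed marker lists, 84 groups of 4 or 5 libraries of a genotype were examined. Dixon's gap test looked for a library far from the others. Such a library was found in 6 groups, where about 4.2 are expected by chance at 1 in 20, and none was a marker sum. DJ-1+/+ replicates 1 and 4 were thus not flagged for cerebellar neuron or choroid plexus markers. Gsto1 was at 78.4 cpm in DJ-1+/+ replicate 2, against 59.4 to 62.1 cpm in the other wild-type mice, and without that library its log2 fold change was 0.25. Gstt3 was at 45.5 cpm in the same library, against 36.1 to 37.2 cpm. Mgst2 was at 0 cpm in DJ-1-/- replicate 3, against 0.911 to 1.03 cpm in the other knockout mice, which had a single count each. Slc1a1 was at 116 cpm in DJ-1+/+ replicate 4, against 83.1 to 87.5 cpm. In DJ-1-/- replicate 5, Slc7a11 was at 105 cpm, against 75.3 to 80.1 cpm. Fah in the same mouse was at 43.9 cpm, against 52.7 to 56.1 cpm.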

How the results depend on the processing

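The log2 fold changes of the 10 genes moved by less than the spread between replicates under all 20 alternatives, and 6 of them kept their direction in all 20. For Gsto2 the direction follows from the way it was picked. An unadjusted p under 0.05 was found for 511 of all genes by edgeR, 235 by DESeq2, 802 without the count minimum and 348 to 738 when 1 library was left out. The split of higher and lower was 281 and 230 with TMM, 256 and 280 with RLE size factors and 226 and 282 with thinned counts. The count with an adjusted p under 0.05 was 1, against 36 without the count minimum, 3 in Xist libraries only and 1 to 2 when 1 library was left out. In the gene lists the count with an unadjusted p under 0.05 was 3, against 0 with DESeq2, 5 without both libraries low in Gpx4 and Ftl1, and 1 to 4 when 1 library was left out, and none had an adjusted p under 0.05 under any of the 20. The causes were not tested.

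Replicate numbers are shared by the genotypes, but libraries with the same number did not deviate together (r = 0.180, −0.006, −0.082 and −0.100), and 1 of 4 wild-type libraries correlated best with its own number. With the replicate number as a block, 569 genes had an unadjusted and 8 an adjusted p under 0.05, and the log2 fold change of Gsto2 was 2.07. Every knockout library was deeper than every wild-type library, so depth and genotype cannot be told apart, and Gsto2 in wild-type mice was at or below the floor.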

Other observations

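The variance between mice of one genotype, divided by the mean count, had a median of 1.14 over all genes tested and was below 1 for 42.6% of them. By level, the median was 1.08 for the 3907 genes with a mean of 50 to 100 counts, 0.878 for the 2449 genes with 100 to 150 counts and 1.27 for the 811 genes with 150 to 250 counts. The ratio was 1.02 for Gstm5, 1.09 for Gstm1 and 2.16 for Gsta4.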
